A study of Mus musculus with 24 samples.

Results

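Messenger RNA of the 5 subunit genes of the transcription factor NF-kB (Nfkb1, Nfkb2, Rel, Rela and Relb) and of 5 genes of the IkB family that bind them (Nfkbia, Nfkbib, Nfkbie, Nfkbiz and Bcl3) was followed in mouse cerebral cortex. The 10 genes were chosen by symbol, with earlier results of these data known. Each symbol matched 1 row of a count table of 43346 genes. RNA-seq counts of 24 cortex libraries were available, in 4 groups of 6 formed by a genotype label (control or Abca7) and a stimulus label (none or LPS). LPS is lipopolysaccharide, the bacterial cell wall molecule that Toll-like receptors sense. The series text calls the mice carrying the Abca7 label heterozygous for Abca7, a lipid transporter gene, and says that the animals received LPS by injection before the brains were taken. The sources used here give neither the strain, the sex, the kind of Abca7 allele, the LPS dose and route nor the time from injection to collection, and do not say what the unstimulated mice received. Mice of the unstimulated groups were 55 to 58 days old and those of the LPS groups 54 to 56 days old. Each library title has a code of its own, but the labels do not say in words that each is a separate animal. The p-values therefore weigh group differences against the spread between these libraries.

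NF-kB proteins act as dimers of the subunits and bind kappa B sites in the DNA. In resting cells, the classical inhibitors (the products of Nfkbia, Nfkbib and Nfkbie) hold dimers in the cytoplasm until the IkB kinase complex marks them for degradation, whereas the products of Nfkbiz and Bcl3 act in the nucleus as cofactors. Several of these genes are themselves NF-kB targets, which gives the pathway positive and negative feedback. In the brain the pathway is known for the inflammatory responses of microglia, endothelium and astrocytes.

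Library totals ranged from 48149131 to 75741388 counts, and all 10 genes passed the filter on low counts, as did 21891 genes in all. The transcript of Abca7 averaged 28.6 ± 2.22 CPM in control and 32.1 ± 2.07 CPM in labelled Abca7 mice without LPS, and 24.5 ± 2.66 and 29.4 ± 2.30 CPM under LPS (SD, n = 6 each; CPM is counts per 1000000 counts of a scaled library). The edgeR log2 difference between labels was 0.17 ± 0.07 without LPS (adjusted p = 0.606) and 0.26 ± 0.07 under LPS (adjusted p = 0.267). The label therefore does not go with a lower Abca7 count, and which part of the transcript an allele would remove is not given, so the groups are called by their label throughout. Defining markers of cortical cells were present: the summed level of 8 neuronal markers had group medians of 4864 to 5261 CPM. One library stood apart for the genes described here. Replicate 4 of the LPS group labelled Abca7 was the lowest of its 6 libraries for all 10 genes. LPS estimates of the genes whose groups overlapped in labelled Abca7 mice, and some other results, are also given without it. Unless stated, values include it.

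Promoter sequences of RefSeq (build GRCm38.p6, 250 bases before to 50 bases after a transcription start) were on hand for 7 of the 10 genes: Nfkb2, Rel, Rela, Nfkbia, Nfkbib, Nfkbie and Bcl3. They were searched on both strands for the 10-base kappa B consensus. It was found in 2779 of 32851 windows (8.46%), and in at least 1 window of 2581 of 27025 genes (9.55%). Of the 7 genes, 5 held it: Nfkb2, Rel, Nfkbia, Nfkbie and Bcl3. The windows of Rela and Nfkbib did not, which says only that these letters are absent from this window. The stretches around the matches are shown as a description of the genes whose levels follow. Rela, without a match, also passed the LPS test described below. Capitals mark the match, and each sequence is written 5′ to 3′ on the strand of the gene.
Nfkbia, chr12:55492647-55492696, minus strand, match 29 to 20 bases before the start: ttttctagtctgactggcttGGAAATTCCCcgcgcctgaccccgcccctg
Nfkb2, chr19:46304678-46304728, plus strand, match 39 to 29 bases before the first listed start: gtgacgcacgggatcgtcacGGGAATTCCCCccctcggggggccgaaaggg
Nfkb2, chr19:46304706-46304755, plus strand, match 11 to 2 bases before the same start: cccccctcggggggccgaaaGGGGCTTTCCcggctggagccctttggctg
Rel, chr11:23771031-23771081, minus strand, match 92 to 82 bases before the start: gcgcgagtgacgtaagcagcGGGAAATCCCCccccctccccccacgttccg
Nfkbie, chr17:45555574-45555623, plus strand, match 106 to 97 bases before the start: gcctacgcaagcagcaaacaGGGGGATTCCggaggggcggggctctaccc
Bcl3, chr7:19822724-19822773, minus strand, match at bases 3 to 12 of the transcript: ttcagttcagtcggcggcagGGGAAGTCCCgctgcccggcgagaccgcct

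The runs of 11 capitals in Nfkb2 and Rel are overlapping matches of the consensus. Nfkb2 has further listed starts, and its second window holds 2 matches. The first lies 236 to 227 bases before that start, at the edge of the window: chr19:46305445-46305488, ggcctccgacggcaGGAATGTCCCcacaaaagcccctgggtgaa. The other lies at bases 11 to 20 of the transcript and also falls in the third window: chr19:46305685-46305734, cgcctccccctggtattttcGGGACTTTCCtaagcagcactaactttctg. For comparison, the window of Rela without a match is chr19:5637291-5637590 on the plus strand: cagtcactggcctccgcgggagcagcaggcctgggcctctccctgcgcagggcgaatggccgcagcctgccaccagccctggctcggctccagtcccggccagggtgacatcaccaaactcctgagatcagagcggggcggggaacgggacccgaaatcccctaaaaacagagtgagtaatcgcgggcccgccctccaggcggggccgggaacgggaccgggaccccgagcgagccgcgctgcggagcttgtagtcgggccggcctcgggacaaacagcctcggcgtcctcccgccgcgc

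The first comparison asked how the genes differed between LPS and unstimulated cortex. In control mice 9 of the 10 genes were higher under LPS, from 1.44-fold for Rela to 27.2-fold for Bcl3, and Nfkbib did not pass the test (edgeR quasi-likelihood test, Benjamini-Hochberg adjusted over all 21891 genes, threshold 0.05). Of all genes tested, 17.3% passed in either direction and 9.39% were higher. The 9 genes were also those whose 6 LPS libraries all lay above the 6 unstimulated ones, which 9.06% of all genes did in either direction. In mice labelled Abca7 the test called the same 9 genes, against 11.8% of all genes called and 6.65% called higher, and 6 of the 10 had groups that did not overlap, against 5.73%. The median log2 fold change of the 10 genes was 1.29 in control and 1.11 in labelled Abca7 mice, beside 0.0051 and 0.0052 over all genes tested. In a bulk tissue sample, a change in the number of cells of a type and a change in RNA per cell cannot be told apart.

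**Figure D1:**
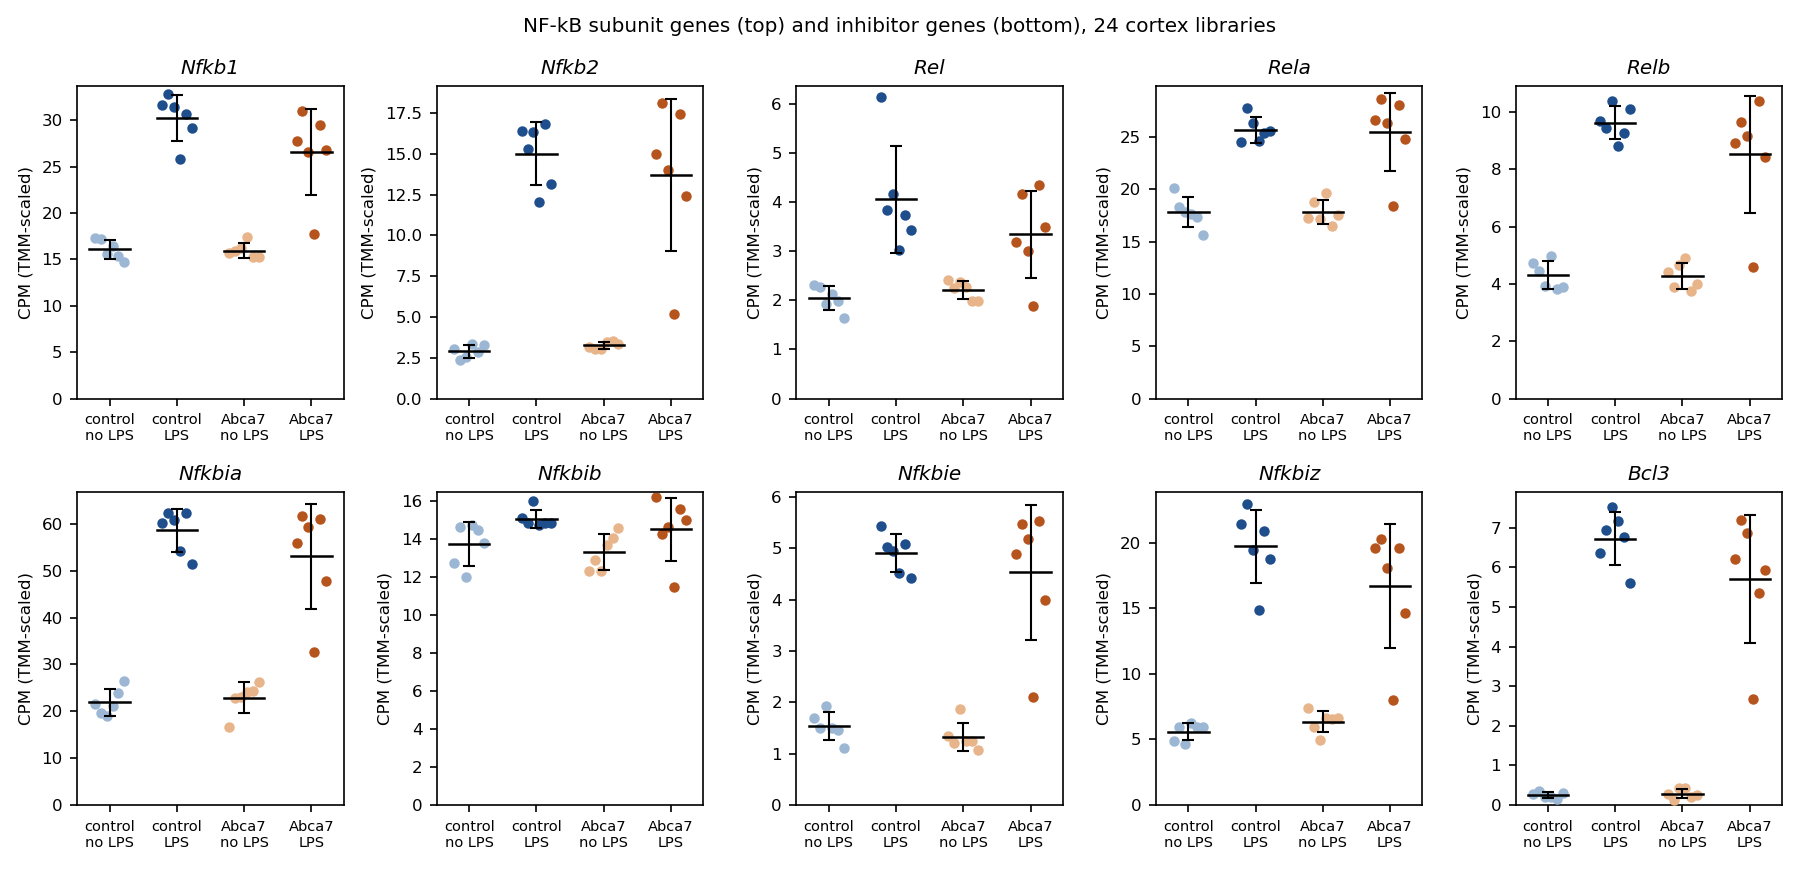
Level of each gene in the 24 libraries (y axis, CPM with scaled library sizes, from 0) by group (x axis). Points are libraries, the horizontal line is the mean and the bars are 1 SD (n = 6). Every gene except Nfkbib shows a step between the unstimulated and the LPS groups, and 1 low point recurs in the LPS group labelled Abca7.

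Nfkb1 (chromosome 3, positions 135584655 to 135691547 in the count table, build mm10, as for all 10 genes) encodes a precursor that is cut to a DNA-binding subunit without a transactivation domain. Its 6 unstimulated control libraries held 14.7 CPM at the lowest, 16.04 at the median and 17.3 at the highest, and the control LPS libraries held 25.8, 31.0 and 32.8 CPM. In mice labelled Abca7 the values were 15.2, 15.8 and 17.4 CPM without LPS and 17.8, 27.3 and 31.0 CPM under LPS. The LPS libraries were all higher in both genotypes, but in the labelled Abca7 mice the gap came down to 17.4 against 17.8 CPM because of replicate 4; the next library was at 26.6 CPM. The log2 fold change was 0.91 ± 0.09 (SE) in control mice and 0.74 ± 0.09 in labelled Abca7 mice, with edgeR adjusted p-values of 3.83e-09 and 2.57e-07.

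Nfkb2 (chromosome 19, 46304737 to 46312090) encodes the precursor of the DNA-binding subunit of the noncanonical pathway. Unstimulated control libraries held 2.37, 2.95 and 3.36 CPM (lowest, median, highest) and control LPS libraries 12.1, 15.8 and 16.9 CPM. Unstimulated libraries labelled Abca7 held 3.02, 3.26 and 3.50 CPM, and LPS libraries of that label 5.20, 14.5 and 18.1 CPM. The groups did not overlap in either genotype, and every LPS library apart from the one at 5.20 CPM lay at 12.1 CPM or above. The difference was 5.15-fold in control mice (log2 fold change 2.36 ± 0.18, edgeR adjusted p = 8.61e-11) and 4.21-fold in labelled Abca7 mice (2.07 ± 0.18, adjusted p = 1.41e-09). Nfkb2 had the largest estimate of the subunit genes in both. In the GENCODE M21 annotation its exons overlap the gene Psd on the opposite strand. There, 14.9% of the 50-base sequences of Nfkb2 are also present in other genes. By the coordinates deposited with the counts, Nfkb2 and Psd share only 4 bases. Psd itself averaged 328 CPM without and 298 CPM with LPS in control mice before scaling of library sizes.

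Rel (chromosome 11, 23741514 to 23770970) encodes c-Rel, a transactivating subunit best known from lymphoid and myeloid cells. Its counts were low: unstimulated control libraries held 1.64, 2.06 and 2.32 CPM and control LPS libraries 3.03, 3.79 and 6.14 CPM. The corresponding values were 1.99, 2.27 and 2.42 CPM and 1.88, 3.34 and 4.35 CPM in mice labelled Abca7. All control LPS libraries lay above the unstimulated ones, whereas in labelled Abca7 mice replicate 4, at 1.88 CPM, lay under all 6 unstimulated libraries and the other LPS libraries lay above them. The log2 fold change was 0.99 ± 0.16 in control mice (edgeR adjusted p = 4.08e-05) and 0.60 ± 0.16 in labelled Abca7 mice (adjusted p = 0.0128); without replicate 4 the latter was 0.71 ± 0.14 (adjusted p = 0.000656).

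Rela (chromosome 19, 5637483 to 5648130) encodes the transactivating subunit of the most common dimer. Unstimulated control libraries held 15.7, 17.7 and 20.1 CPM and control LPS libraries 24.5, 25.5 and 27.8 CPM. In mice labelled Abca7 they held 16.5, 17.4 and 19.6 CPM, and 18.4, 26.5 and 28.7 CPM under LPS. Control groups did not overlap; in labelled Abca7 mice replicate 4 lay within the unstimulated range and the other 5 LPS libraries, from 24.9 CPM up, lay above it. Rela had the smallest estimate of the subunit genes in both genotypes, at 1.44-fold in control mice (log2 0.53 ± 0.07, edgeR adjusted p = 4.68e-06) and 1.43-fold in labelled Abca7 mice (0.52 ± 0.08, adjusted p = 9.16e-06). Without replicate 4 the labelled Abca7 value was 0.59 ± 0.06 (edgeR adjusted p = 4.95e-09).

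Relb (chromosome 7, 19606217 to 19629438) encodes the subunit that pairs with the Nfkb2 product. Unstimulated control libraries held 3.83, 4.20 and 4.98 CPM and control LPS libraries 8.83, 9.57 and 10.4 CPM. Labelled Abca7 libraries held 3.76, 4.21 and 4.91 CPM without LPS and 4.59, 9.05 and 10.4 CPM with it. As for Rela, the control groups were separate and replicate 4 alone caused the overlap in labelled Abca7 mice. The log2 fold change was 1.16 ± 0.12 in control mice (2.23-fold, edgeR adjusted p = 4.07e-08) and 0.999 ± 0.13 in labelled Abca7 mice (adjusted p = 8.68e-07). Without replicate 4 the latter was 1.12 ± 0.08 (edgeR adjusted p = 2.7e-11).

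Nfkbia (chromosome 12, 55489411 to 55492647) encodes IkB alpha, the inhibitor known for its rapid resynthesis after NF-kB activation. Unstimulated control libraries held 19.0, 21.4 and 26.5 CPM and control LPS libraries 51.5, 60.6 and 62.4 CPM. In mice labelled Abca7 they held 16.6, 23.5 and 26.3 CPM without LPS and 32.7, 57.6 and 61.8 CPM with it. The groups did not overlap in either genotype. The log2 fold change was 1.42 ± 0.12 in control mice (2.67-fold, edgeR adjusted p = 3.95e-10) and 1.21 ± 0.12 in labelled Abca7 mice (2.32-fold, adjusted p = 1.04e-08).

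Nfkbib (chromosome 7, 28758251 to 28767512) encodes IkB beta, a classical inhibitor that is resynthesised more slowly. Its lowest, median and highest values were 12.01, 14.2 and 14.8 CPM in unstimulated control mice and 14.7, 14.9 and 16.02 CPM in control LPS mice, so the groups met at their edge. In mice labelled Abca7 the values were 12.3, 13.3 and 14.6 CPM and 11.5, 14.8 and 16.2 CPM, and the groups overlapped. The log2 fold change was 0.13 ± 0.07 in control mice (95% interval -0.0035 to 0.27, edgeR adjusted p = 0.185) and 0.13 ± 0.07 in labelled Abca7 mice (-0.012 to 0.26, adjusted p = 0.265), and neither passed the test. Without replicate 4 the labelled Abca7 value was 0.18 ± 0.06 and passed (adjusted p = 0.0327). The upper interval bounds lie under the estimate of every other gene of the 10. In the GENCODE M21 annotation Nfkbib overlaps Sirt2 (42 exonic bases) and Ccer2 (314) on the opposite strand. There, 12.6% of its 50-base sequences occur in other genes, mainly in Ccer2, which has no row among the counts. By the deposited coordinates the span of Nfkbib overlaps those of Gm6537 by 715 bases and Sirt2 by 778.

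Nfkbie (chromosome 17, 45555716 to 45563169) encodes IkB epsilon, a classical inhibitor that is itself inducible. In control mice the values were 1.10, 1.501 and 1.94 CPM without LPS and 4.42, 4.99 and 5.44 CPM with it. Labelled Abca7 libraries held 1.08, 1.24 and 1.87 CPM without LPS and 2.10, 5.03 and 5.53 CPM with it. No unstimulated library reached an LPS library of its genotype. Nfkbie was 3.20-fold higher in control mice (log2 1.68 ± 0.17, edgeR adjusted p = 1.7e-08) and 3.42-fold higher in labelled Abca7 mice (1.77 ± 0.18, adjusted p = 1.23e-08).

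Nfkbiz (chromosome 16, 55811375 to 55838899) encodes IkB zeta, a nuclear cofactor needed for a subset of secondary response genes such as Il6 and Lcn2. Control libraries held 4.64, 5.93 and 6.27 CPM without LPS and 14.9, 20.2 and 22.9 CPM with it. Labelled Abca7 libraries held 4.95, 6.62 and 7.40 CPM without LPS and 8.02, 18.8 and 20.3 CPM with it. The groups were separate in both genotypes, though by less than 1 CPM in labelled Abca7 mice. The log2 fold change was 1.81 ± 0.16 in control mice (3.52-fold, edgeR adjusted p = 5.86e-10) and 1.396 ± 0.154 in labelled Abca7 mice (2.63-fold, adjusted p = 9.89e-08).

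Bcl3 (chromosome 7, 19808462 to 19822770) encodes a nuclear IkB protein that binds dimers of the Nfkb1 and Nfkb2 products. It was close to the detection limit without LPS, with 11, 14 and 19 raw counts per control library (lowest, median, highest) and 8, 14 and 24 per library labelled Abca7. Under LPS the counts were 302, 413.5 and 549, and 136, 337 and 485. In CPM, control medians were 0.236 without and 6.84 with LPS, and labelled Abca7 medians were 0.271 and 6.08; replicate 4, at 2.67 CPM, was still above every unstimulated library. Bcl3 was 27.2-fold higher in control mice (log2 4.77 ± 0.24, edgeR adjusted p = 1.28e-14) and 19.7-fold higher in labelled Abca7 mice (4.30 ± 0.23, adjusted p = 1.15e-13). By p-value it ranked 29 of 21891 genes in control and 31 in labelled Abca7 mice. Within Bcl3 lie a pair of antisense genes, Gm16174 with control means of 0.0105 CPM without and 0.267 CPM with LPS and Gm16175 with 0.0402 and 0.641 CPM, before scaling of library sizes; whether the counting used strand is not given, so reads of Bcl3 and these genes may not be divided between them.

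**Figure D2:**
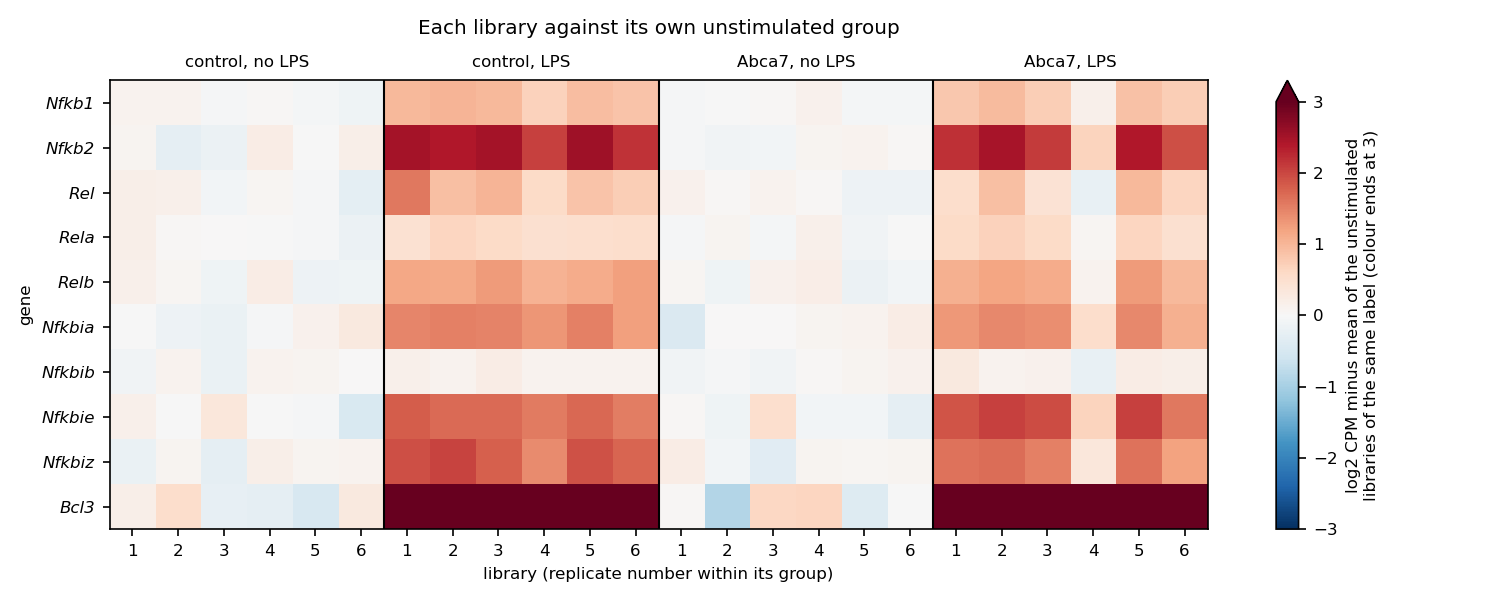
Log2 CPM of each gene (rows) in each library (columns, replicate numbers within a group) minus the mean of the unstimulated libraries of the same genotype label. Colours end at 3, which Bcl3 exceeds in every LPS library. Replicate 4 of the LPS group labelled Abca7 is the pale column among the LPS libraries.

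Replicate 4 of the LPS group labelled Abca7 was from a mouse of 54 days and held 54193779 counts. Against the mean of the other 5 LPS libraries of its label it lay lower by log2 values from -0.40 for Nfkbib to -1.57 for Nfkb2. It lay above all 6 unstimulated libraries of its label for Nfkb1, Nfkb2, Nfkbia, Nfkbie, Nfkbiz and Bcl3, within their range for Rela and Relb, and under them for Rel and Nfkbib. Its share of counts on ribosomal RNA loci was 16.5%, in a range of 5.88% to 18.7% over the 24 libraries, and the part of this share in its values was not tested. Without replicate 4 all 10 genes passed the test in labelled Abca7 mice, against 12.9% of all genes, and their median log2 fold change was 1.22. Over all genes, 2841 were called without it in place of 2591 with it. How many of all genes had their lowest value of the group in this library was not counted.

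The LPS groups were on average younger than the unstimulated ones, so the difference was also read within mice of the same age. Control mice gave strata at 55 days (2 unstimulated and 2 LPS libraries) and 56 days (3 and 3). Labelled Abca7 mice gave strata at 55 days (3 and 2) and 56 days (1 and 2). In each stratum all 10 genes had a higher mean in the LPS libraries, also Nfkbib, which did not pass the test. The strata are too small to read anything from whether their libraries overlap. How many of all genes were higher in each was not computed. These strata hold none of the 54-day LPS libraries, and so leave out replicate 4 of the LPS group labelled Abca7, the library behind the overlap of Rel, Rela and Relb. The 9 called genes differed by 0.60 to 4.55 and 0.47 to 4.52 (log2) in the control strata and by 0.50 to 4.31 and 0.61 to 3.85 in the labelled Abca7 strata. The 56-day stratum of labelled Abca7 mice has 1 unstimulated library and no spread.

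Marker levels of some cell types also differed with LPS, some lower and some higher, while others changed little. The sum of 8 microglial markers had medians of 271 CPM without and 184 CPM with LPS in control mice (ranges 267 to 277 and 175 to 191), and 266 and 185 CPM in labelled Abca7 mice, with 8 of 8 markers lower in both. The sum of 7 endothelial markers had medians of 182 and 117 CPM in control and 179 and 115 CPM in labelled Abca7 mice, with 6 of 7 lower and 1 higher. Neutrophil markers summed to 0.498 and 1.72 CPM in control and 0.388 and 1.55 CPM in labelled Abca7 mice. Of those 8 genes, Elane had 0 counts in all groups and Ly6g had 0 in both control groups. The 2 that passed the filter on low counts, S100a8 and S100a9, were called higher in both genotypes. Monocyte markers summed to 5.87 and 6.29 CPM in control and 6.26 and 5.88 CPM in labelled Abca7 mice. Of 6 monocyte markers, 3 were called higher and 1 lower in control mice, and 2 and 1 in labelled Abca7 mice. Lymphocyte markers summed to 0.307 and 0.308 CPM, and 0.449 and 0.327 CPM. Astrocyte markers summed to 4220 and 3994 CPM, and 4254 and 4015 CPM. Most of that sum is Slc1a2, at 2897 and 2749 CPM in control mice, which was not called. Of 6 astrocyte markers, 3 were called higher and 0 lower in control mice, and 1 and 0 in labelled Abca7 mice. Oligodendrocyte markers summed to 4179 and 4805 CPM, and 3733 and 4534 CPM. Choroid plexus markers had medians of 24.4 and 289 CPM in control mice and 440 and 301 CPM in labelled Abca7 mice. The labels do not say how the tissue was cut, and the part of the cutting in these levels was not tested. With the level of the choroid plexus gene Ttr as a covariate the 9 genes still passed in both genotypes, Rela with a control log2 fold change of 0.39 (edgeR adjusted p = 0.0161). The part of the marker levels of the other cell types in the result was not tested.

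**Figure D3:**
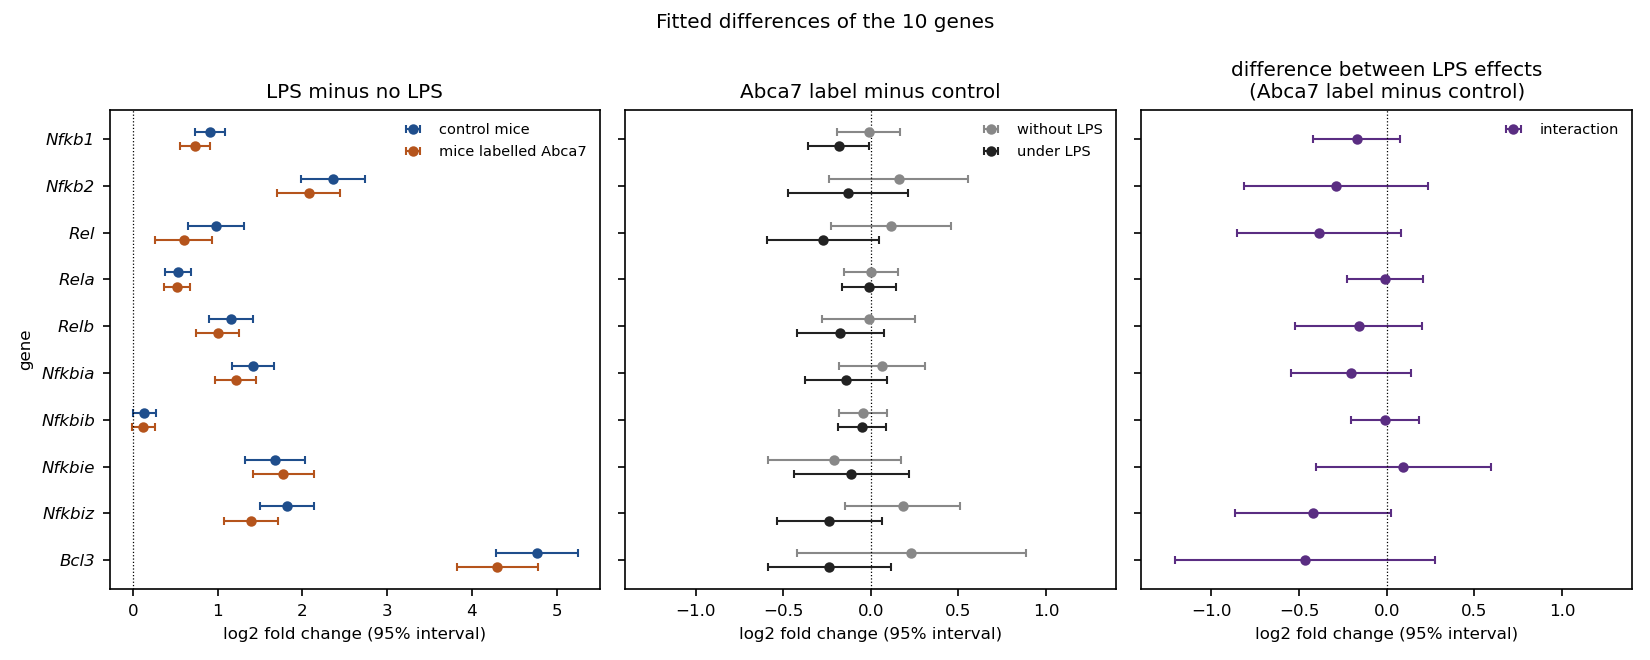
Fitted log2 fold changes of the 10 genes with 95% intervals (x axes; the scale differs between the left panel and the others). Left, LPS minus none in each genotype; middle, Abca7 label minus control without and under LPS; right, the difference between the LPS effects. Intervals in the left panel exclude 0 for all genes except Nfkbib, and in the other panels they include 0 for all genes except Nfkb1 under LPS.

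The second comparison was between genotype labels. Without LPS none of the 10 genes passed the edgeR test, against 0.032% of all genes (7 genes), and none had an unadjusted p under 0.05, as 1426 of all genes did; DESeq2 called none of the 10 and 33 genes in all. The estimates ran from -0.21 ± 0.18 for Nfkbie to 0.23 ± 0.32 for Bcl3. Intervals were narrow for the abundant genes, at -0.15 to 0.16 (log2) for Rela and -0.19 to 0.17 for Nfkb1, and wide for Bcl3, at -0.42 to 0.88. Bcl3 had the fewest counts of the 10 genes in these groups, and a difference anywhere within that interval is compatible with its values.

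Under LPS none of the 10 genes passed either, against 0% of all genes called by edgeR. At an unadjusted p under 0.05 there were 1748 genes, 1 of them Nfkb1; DESeq2 called 41 genes and none of the 10, of which Rel, Nfkbie and Bcl3 got no adjusted p from it. All 10 estimates were lower in mice labelled Abca7. They ran from -0.0097 ± 0.074 for Rela to -0.27 ± 0.16 for Rel, and Nfkb1 was at -0.18 ± 0.08 (edgeR adjusted p = 0.599). Without replicate 4 the signs of 4 genes changed, with Nfkb2 at 0.04, Nfkbib at 0.0073, Nfkbie at 0.03 and Rela at 0.07, and Nfkb1 was at -0.09 (adjusted p = 0.675).

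Whether the LPS effect differed between genotype labels was tested as an interaction. No gene passed, neither among the 10 nor among all genes (0%), with edgeR or DESeq2; at an unadjusted p under 0.05 there were 745 genes and none of the 10. The estimate was smaller in labelled Abca7 mice for 9 genes and larger for Nfkbie; without replicate 4 it was smaller for 7 and larger for 3, with Rela at 0.07 and Nfkbib at 0.05. The lowest p among the 10 was that of Nfkbiz, at -0.42 ± 0.22 (95% interval -0.86 to 0.03, edgeR adjusted p = 1), which was -0.28 without replicate 4. Rela and Nfkbib had estimates of -0.01 ± 0.11 and -0.0074 ± 0.094, with intervals of -0.23 to 0.21 and -0.20 to 0.19. For Bcl3, the gene with the fewest counts in the unstimulated groups, the interval ran from -1.21 to 0.28.

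Levels were compared between genes per kilobase, as CPM divided by the length given in the count table. Nfkbia was the highest of the 10 in every group, with 13.9 ± 1.79 CPM per kb in unstimulated and 37.2 ± 2.93 in LPS control mice (SD, n = 6), and all 6 libraries lay above those of the next gene. In unstimulated control mice Rela (6.56 ± 0.53) and Nfkbib (6.34 ± 0.52) followed and overlapped, then Nfkb1 (3.37 ± 0.22). Nfkbiz (1.12 ± 0.13), Relb (1.11 ± 0.13), Nfkb2 (0.884 ± 0.12), Rel (0.732 ± 0.089) and Nfkbie (0.633 ± 0.11) came next, each overlapping its neighbour in this order. Bcl3 was lowest at 0.10 ± 0.03 CPM per kb, apart from all others. Mice labelled Abca7 had the same order without LPS.

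Under LPS the order of control means was Nfkbia, Rela (9.46 ± 0.45), Nfkbib (6.95 ± 0.22), Nfkb1 (6.33 ± 0.52), Nfkb2 (4.57 ± 0.59), Nfkbiz (3.94 ± 0.56), Bcl3 (2.71 ± 0.27), Relb (2.48 ± 0.15), Nfkbie (2.03 ± 0.16) and Rel (1.45 ± 0.39). Nfkb2 and Bcl3 had moved up, and Rel was now the lowest. The ranges of Nfkbib and Nfkb1, of Nfkb2 and Nfkbiz, of Nfkbiz and Bcl3, of Bcl3 and Relb, and of Nfkbie and Rel overlapped. The order was the same in mice labelled Abca7, where only Nfkbia was separate from its neighbour. With the exonic lengths of GENCODE M21 the order differed. In control mice under LPS, Nfkb1 was at 2.51 ± 0.21 CPM per kb, after Nfkbiz, Nfkb2 (3.28 ± 0.43) and Bcl3 (2.72 ± 0.27). Without LPS, Rela (5.797 ± 0.468) came after Nfkbib, and Rel (0.274 ± 0.033) after Nfkbie (0.504 ± 0.091).

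The genes differed in fold change, so the make-up of the summed level differed between stimuli. The 5 subunit genes summed to 12.7 ± 0.88 CPM per kb in unstimulated and 24.3 ± 1.59 in LPS control mice, and the 5 IkB genes to 22.1 ± 1.98 and 52.8 ± 3.69. Rela made up 51.8% ± 1.33 of the subunit sum without LPS and 39.0% ± 2.29 with it in control mice, and 51.3% ± 1.30 and 42.3% ± 3.30 in mice labelled Abca7. Nfkb2 made up 7.02% ± 1.13 and 18.7% ± 1.52 in control mice, and 7.76% ± 0.65 and 17.9% ± 3.46 in labelled Abca7 mice, while Nfkb1 made up 26.7% ± 0.60 and 26.0% ± 0.56 in control mice without and with LPS. With exonic lengths of the GENCODE M21 annotation, Nfkb1 was at 14.6% in both of these groups, Rel at 2.99% in place of 5.77% without LPS, and Rela at 63.3% and 48.8%. The table-length shares do not overlap between stimuli for Rela and Nfkb2 in either genotype. The labelled Abca7 shares under LPS include replicate 4. Over those 6 libraries they ran up to 48.7% for Rela and down to 11.3% for Nfkb2.

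Among the IkB genes, Nfkbia made up 62.8% ± 3.04 of the sum without LPS and 70.4% ± 0.80 with it in control mice. Nfkbib, which did not pass the test itself, made up 28.8% ± 2.31 and 13.2% ± 0.87, and Bcl3 0.456% ± 0.15 and 5.13% ± 0.47. The ratio of Nfkbia to Rela per length was 2.14 ± 0.43 without and 3.93 ± 0.29 with LPS in control mice, and 2.22 ± 0.34 and 3.56 ± 0.31 in labelled Abca7 mice. The ratio of Nfkb2 to Nfkb1 was 0.264 ± 0.043 and 0.720 ± 0.057 in control mice. These values depend on the lengths: with the exonic lengths of the GENCODE M21 annotation, which is 12061 bases for Nfkb1 against 4779 in the table, the Nfkb2 to Nfkb1 ratio under LPS was 1.30 ± 0.10, so which of the pair is higher under LPS depends on the annotation. The fold difference of a 2-gene ratio between stimuli does not depend on the lengths.

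**Figure D4:**
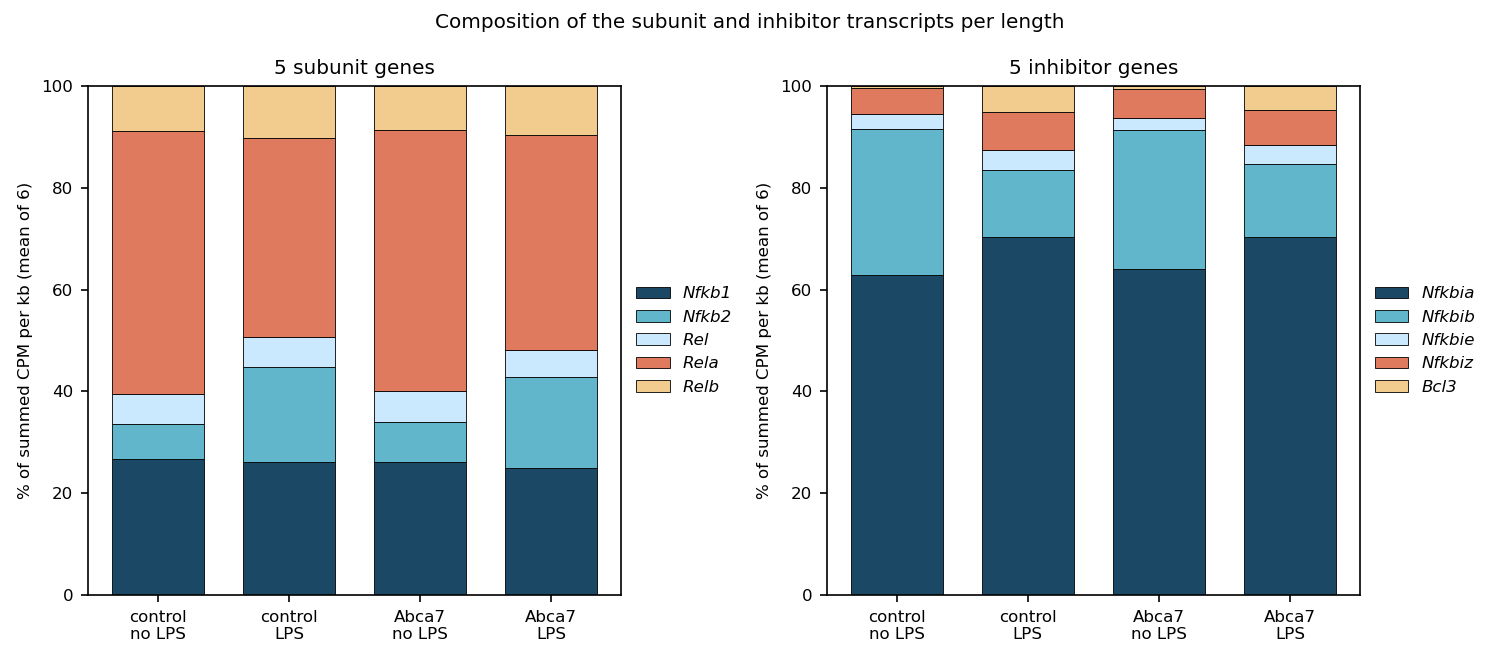
Share of each gene in the summed CPM per kb (y axis, percent, mean of 6 libraries) of the 5 subunit genes (left) and the 5 IkB family genes (right) in the 4 groups. The Rela and Nfkbib segments are smaller, and the Nfkb2 and Bcl3 segments larger, in the LPS groups.

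The genes most like each of the 10 across the 24 libraries were sought among 15050 other genes. Those had an average log2 CPM of at least 1. Likeness was the root mean square difference of log2 CPM after each gene's mean was removed. This is a description of these libraries, and the unstimulated and LPS groups dominate it. Nfkb1 was closest to Stat3 (0.092) and Plek (0.094), Nfkb2 to Cp (0.197) and Pik3r5 (0.219), and Rel to Sema4c (0.148) and Csrnp1 (0.164). Rela was closest to Trex1 (0.1003) and Ripk1 (0.101), and Relb to Rnd1 (0.119) and Bach1 (0.130). Among the IkB genes, Nfkbia was closest to Errfi1 (0.115) and Mt1 (0.165), Nfkbib to Mrpl9 (0.082) and AI837181 (0.085), and Nfkbie to Pnp (0.222) and Crispld2 (0.239). Nfkbiz was closest to Robo4 (0.178) and Sbno2 (0.180), and Bcl3 to Cd300lf (0.378) and Tmem252 (0.381). None of the 10 genes was among the 2 nearest of another. Genes with unlike fold changes lie apart by this measure, so this does not say whether the 10 vary together.

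Upstream of the subunits are the kinases that act on the IkB proteins. Of 8 kinase genes, 2 were higher and 2 lower in control mice, with a list median of 0.09 (log2), and 2 were higher and 1 lower in labelled Abca7 mice. For this and the following lists, the shares over all genes were 17.3% called and 9.39% called higher in control mice, and 11.8% and 6.65% in labelled Abca7 mice. Map3k8, the kinase Tpl2 that is held by the Nfkb1 precursor, averaged 2.01 CPM without and 9.87 CPM with LPS in control mice (log2 2.29 ± 0.15, edgeR adjusted p = 2.14e-12). Ikbke, an IkB kinase-related gene that is inducible in immune cells, was at 2.12 and 3.61 CPM (0.77 ± 0.11, adjusted p = 7.53e-06). Both also rose in labelled Abca7 mice, by 2.15 ± 0.15 and 0.83 ± 0.11. The catalytic subunits of the IkB kinase complex were slightly lower in control mice, Chuk by -0.15 ± 0.05 (adjusted p = 0.0391) and Ikbkb by -0.14 ± 0.04 (adjusted p = 0.0253), and of these Chuk also passed in labelled Abca7 mice (-0.16 ± 0.05, adjusted p = 0.0288). The regulatory subunit Ikbkg (0.09 ± 0.04), Tbk1 (0.09 ± 0.04), Map3k7 (-0.0075 ± 0.032) and the noncanonical kinase Map3k14 (0.19 ± 0.12) did not pass in control mice.

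Receptor adaptors and ubiquitin ligases showed 9 of 17 genes higher and 2 lower in control mice (median 0.14), and 7 higher and 2 lower in labelled Abca7 mice, beside 9.39% and 6.65% of all genes called higher. The 6 with the largest change were Birc3, a ubiquitin ligase and known NF-kB target (2.22 to 17.5 CPM, log2 2.97 ± 0.23), Irak3, a negative regulator of Toll-like receptor signalling (0.791 to 4.39 CPM, 2.46 ± 0.19), and the adaptor Myd88 (4.28 to 12.9 CPM, 1.58 ± 0.12). They were followed by the kinase Ripk1 (6.86 to 11.3 CPM, 0.72 ± 0.08), the adaptor Tirap (2.68 to 4.28 CPM, 0.68 ± 0.10) and the kinase Irak2 (18.7 to 26.7 CPM, 0.51 ± 0.09). These 6 also passed in labelled Abca7 mice.

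Other inhibitors of the pathway included 6 of 9 genes that were higher in control mice (median 0.28) and 5 in labelled Abca7 mice, with none lower in either. Tnfaip3, which encodes a ubiquitin-editing inhibitor, averaged 6.14 CPM without and 33.0 CPM with LPS in control mice (log2 2.43 ± 0.25, edgeR adjusted p = 2.06e-08). Zc3h12a, an RNase that degrades cytokine messages, was at 0.833 and 4.57 CPM (2.45 ± 0.29, adjusted p = 2.32e-07). The binding partners of the Tnfaip3 product differed among themselves, with Tnip3 at 0.0278 and 0.475 CPM, near its detection limit without LPS, Tnip1 at 20.3 and 35.5 CPM (0.81 ± 0.08) and Tnip2 at 13.5 and 16.4 CPM (0.28 ± 0.06). N4bp1 was higher by 0.12 ± 0.04 in control mice (adjusted p = 0.0405) and did not pass in labelled Abca7 mice. The deubiquitinases Cyld (0.04 ± 0.04) and Otulin (-0.06 ± 0.06) and the IkB family gene Nfkbid (-0.21 ± 0.12) did not pass. Nfkbid is thus a further nuclear IkB gene whose estimate had the opposite sign to those of Nfkbiz and Bcl3. Of the linear ubiquitin chain assembly complex, Rnf31 was higher in control mice (0.18 ± 0.05, adjusted p = 0.018), and Rbck1 (-0.05 ± 0.04) and Sharpin (-0.02 ± 0.04) did not pass; in labelled Abca7 mice none of the 3 passed with edgeR, and Rnf31 had an unadjusted p under 0.05.

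Of the 5 lists, the known targets of NF-kB had the highest median. The lists were written with earlier results of these data known, so their medians and counts are a description only. Of 27 target genes, 26 were higher in control mice with a median log2 fold change of 4.73, and 25 in labelled Abca7 mice with a median of 4.61. Levels without LPS were close to 0 for the 5 with the largest fitted change, so CPM is given: Cxcl10, a chemokine, averaged 0.470 ± 0.21 CPM without and 195 ± 38.2 with LPS in control mice, and Ccl2 averaged 0.058 ± 0.03 and 25.3 ± 6.55. Over the 6 unstimulated control libraries together, Cxcl2 had 4 counts, Saa3 had 4 and Tnf had 1, and under LPS their control means were 9.63 ± 3.09, 7.04 ± 1.95 and 2.05 ± 0.61 CPM. At the other end, Sod2, a mitochondrial superoxide dismutase, was at 151 ± 3.14 and 174 ± 6.67 CPM (0.21 log2) and Gadd45b at 7.40 ± 1.37 and 10.9 ± 0.94 CPM (0.56), and Junb (33.8 ± 8.86 and 37.2 ± 3.41 CPM) did not pass. Without replicate 4 the counts called in labelled Abca7 mice were the same for each of these lists. No gene of these 5 lists was called between genotype labels or in the interaction by edgeR, where unadjusted p-values under 0.05 were found for 2 targets in the interaction, 1 target and 1 kinase without LPS, and 1 each of the targets, kinases, adaptors and linear ubiquitin genes under LPS.

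**Figure D5:**
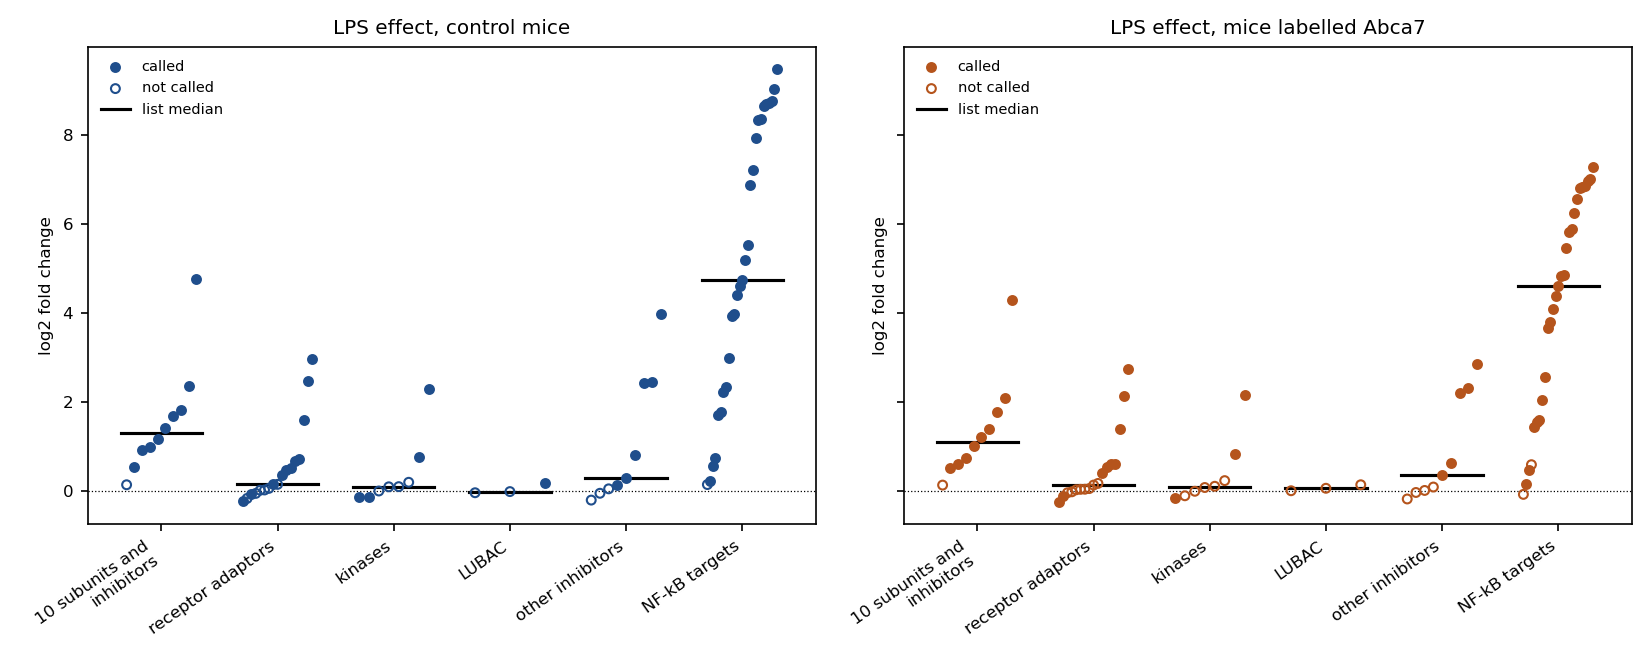
Log2 fold change with LPS (y axis) of the 10 genes and of each gene of the 5 pathway lists (x axis) in control mice (left) and mice labelled Abca7 (right). Filled points passed the test, open points did not, and bars are list medians. The median of the 10 genes lies between those of the upstream and inhibitor lists, which are 0.36 or lower, and that of the targets.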

How the data were processed

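Raw counts of reads per gene were deposited by the authors, with gene coordinates and a gene length. MAP-RSeq 2.1.1 made them on mm10, per the series design text, with the aligner STAR 2.5.2b, per the submitters' processing notes. The annotation release and the strand setting were not stated in these sources. All value columns mapped to libraries of the series. From the counts, genes were kept with filterByExpr (21891 genes, at least 99.96% of each library's counts), scaled with TMM and fitted in 1 edgeR 4.0.16 quasi-likelihood model over all 24 libraries (R 4.3.3), with 5 two-sided contrasts and Benjamini-Hochberg adjustment. The code was tested on simulated data. CPM uses TMM-scaled library sizes; log2 CPM adds a prior count of 2. The SE is the log2 fold change over the square root of F, and 95% intervals use the test's degrees of freedom. DESeq2 1.42.0 was an alternative. Promoters came from RefSeq, and the gene symbols of members and lists from the deposited counts. Overlaps came from GENCODE M21 or, where stated, from the deposited coordinates. All 10 genes were named in every comparison; of the lists, all kinases, other inhibitors and linear ubiquitin genes, the 6 adaptors with the largest change among those called, and the 5 largest and 3 smallest targets were named, with the 2 nearest genes of each member. The genes and lists were chosen with earlier results of these data known. Replicate numbers only name libraries.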

Additional observations from a re-analysis of the deposited data

Results flagged for a closer look

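For each of 10 genes and 4 groups, the lowest and highest log2 CPM of 6 libraries was compared with its nearest neighbour. The gap was taken as a share of the group's range in log2 CPM (Dixon's criterion at 95%). Values below are printed in CPM, a scale on which the criterion was not applied. Of 40 gene and group combinations, 10 had a library beyond it; chance gives about 1 in 20. In the LPS group labelled Abca7, replicate 4 was far below the others for 8 genes: Nfkb1 at 17.8 CPM, Nfkb2 at 5.20, Rela at 18.4, Relb at 4.59, Nfkbib at 11.5, Nfkbie at 2.10, Nfkbiz at 8.02 and Bcl3 at 2.67 CPM. The 8 values come from 1 library and are not independent. In the unstimulated group labelled Abca7, replicate 1 was low for Nfkbia, at 16.6 CPM against 22.9 CPM for the next library; its share of counts on ribosomal RNA loci, 18.7%, was the highest of the 24 libraries, and the part of that in the value was not tested. In the control LPS group, replicate 3 was high for Nfkbib, at 16.02 CPM against 15.1 CPM for the next.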

How the results depend on the processing

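Each log2 fold change of the 10 genes was recomputed with DESeq2, with RLE size factors, without a filter on low counts, with age as a factor, with Ttr as a covariate, with only the groups of the contrast, without the ribosomal RNA loci in the library sizes, and without each library in turn. Of 1057 values, 1056 kept their side of the threshold; the exception is Nfkbib in labelled Abca7 mice without replicate 4 (0.18, adjusted p = 0.0327). The sign changed for 39 values, all among genes not called and between -0.13 and 0.14, and for 0 called values; 3 DESeq2 values had no adjusted p. The 9 called genes stayed called in all 19 alternatives of each LPS comparison, with a highest adjusted p of 0.0161 for Rela in control mice (Ttr covariate) and of 0.0458 for Rel in labelled Abca7 mice (without replicate 5 of the LPS group). With exonic lengths of GENCODE M21, the share of Rela in the subunit sum was 63.3% and 48.8% in control mice without and with LPS, and 62.8% and 52.1% in labelled Abca7 mice. Over all genes, 1626 were called for LPS in control mice with the Ttr covariate in place of 3790. Between genotype labels without LPS, 7 genes were called, against 49 with age, 33 with DESeq2, 3 with the Ttr covariate, 3 with only the 2 groups, and 2 to 38 without 1 library. Under LPS the 0 genes became 41 with DESeq2, 2 with age and 1 without control LPS replicate 4, and the interaction gave 7 without control replicate 1 of the unstimulated group. No paired analysis was possible because the labels give no replicate numbers that groups share. Low counts limit Bcl3, Rel and Nfkbie most.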
